A study of Homo sapiens with 8 samples.

Results

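The FOS, JUN, EGR1 and IER genes described here are 10 immediate early genes: FOS, FOSB and FOSL2, JUN, JUNB and JUND, EGR1, and IER2, IER3 and IER5. They were picked out by gene symbol, as the deposited gene identifiers give it. No measured value is part of that rule, but the genes were chosen with earlier results of these data known. They are 10 of the 58302 genes in the files. All 10 passed the filter on low counts, as did 17676 genes in total.

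RNA was sequenced from 8 cultures of A549, an established human lung adenocarcinoma cell line, in a study of the routes by which lung cancer cells may resist TP-0903. This compound inhibits AXL, a receptor tyrosine kinase of the cell surface. The first group carried a control short hairpin RNA (shRNA), and the second carried an shRNA against AXL, meant to lower its messenger RNA. The third group is labelled control, with no hairpin or agent named, and the fourth was given 40 nM TP-0903. All 4 groups grew in the same serum-containing medium, and each has 2 libraries from biological replicates. The labels add a P number of unstated meaning: P15 and P3 in both shRNA groups, P17 and P4 in the control and TP-0903 groups. The hairpin sequences, whether the shRNA lines are clones, how the control cells were handled and the length of treatment are left unstated there.

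Immediate early genes are transcribed within minutes of a growth factor, serum or stress signal, without new protein synthesis, because kinases such as ERK, JNK and p38 act on transcription factors already bound at their promoters. FOS and JUN family proteins pair through leucine zippers to form AP-1, a transcription factor that binds the same short site in many growth, invasion and inflammation genes, and EGR1 is a zinc finger transcription factor. IER2, IER3 and IER5 encode small proteins that act in signalling and survival. Receptor tyrosine kinases such as AXL signal into this system through the MAP kinase cascade, and many of its messages decay quickly through AU-rich elements in their 3′ UTRs.

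The promoters of EGR1, FOSB, FOSL2 and FOS are shown because EGR1 and FOSB had the most similar patterns across the 8 libraries, FOSL2 gave the most reads, and FOS, best known of the family, did not follow them. Each sequence runs from 250 bases before to 50 bases after the RefSeq start site (GRCh38.p14), 5′ to 3′ on the strand of the gene, with matches to a CArG box, CRE, AP-1 site, TATA box or EGR site in capitals. EGR1 lies at chr5:138465229-138465528, FOSB at chr19:45467746-45468045, FOSL2 at chr2:28392608-28392907 and FOS at chr14:75278578-75278877, all on the plus strand.
EGR1: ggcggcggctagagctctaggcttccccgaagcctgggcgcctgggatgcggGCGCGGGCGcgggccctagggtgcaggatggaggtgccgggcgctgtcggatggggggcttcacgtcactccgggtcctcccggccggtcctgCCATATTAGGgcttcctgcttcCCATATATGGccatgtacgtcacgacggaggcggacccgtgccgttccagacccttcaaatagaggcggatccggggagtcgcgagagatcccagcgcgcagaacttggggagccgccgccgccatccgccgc
FOSB: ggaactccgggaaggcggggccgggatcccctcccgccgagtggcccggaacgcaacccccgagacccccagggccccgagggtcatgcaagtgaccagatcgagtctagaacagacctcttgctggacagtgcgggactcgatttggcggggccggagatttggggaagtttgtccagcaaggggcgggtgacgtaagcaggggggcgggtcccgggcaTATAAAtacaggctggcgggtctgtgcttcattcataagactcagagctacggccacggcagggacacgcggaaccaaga
FOSL2: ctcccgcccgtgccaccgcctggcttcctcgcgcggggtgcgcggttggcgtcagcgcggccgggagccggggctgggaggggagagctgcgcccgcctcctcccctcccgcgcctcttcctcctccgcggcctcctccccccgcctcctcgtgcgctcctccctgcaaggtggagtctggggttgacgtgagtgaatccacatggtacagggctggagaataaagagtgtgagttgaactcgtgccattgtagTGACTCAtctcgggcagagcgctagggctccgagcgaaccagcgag
FOS: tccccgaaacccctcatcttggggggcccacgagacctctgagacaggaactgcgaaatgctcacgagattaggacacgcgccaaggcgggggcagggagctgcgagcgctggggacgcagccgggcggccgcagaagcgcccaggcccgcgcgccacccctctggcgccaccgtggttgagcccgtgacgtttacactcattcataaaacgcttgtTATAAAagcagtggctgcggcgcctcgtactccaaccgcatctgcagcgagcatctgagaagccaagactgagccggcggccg

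The capitals mark different elements in the 4 sequences. The EGR1 window held 2 CArG boxes, the element bound by serum response factor, at bases -105 to -96 and -83 to -74 from the start site, and an EGR site (GCGNGGGCG) at -198 to -190. CArG boxes were found in 1.29% of 35116 RefSeq promoter windows of this length and EGR sites in 9.43%. FOSB and FOS each held a TATA box (TATAAA, read on the sense strand only), at -30 to -25 and -33 to -28, as did JUNB at -31 to -26. A TATA box was present in 7.33% of all windows. FOSL2 held an AP-1 site (TGACTCA), the element bound by the family's own dimers, at 5 to 11 bases after the start, and 4.95% of windows hold such a site. Among the others, JUND held a CRE (TGACGTCA) at -200 to -193, an element found in 1.85% of windows. A GC box (GGGCGG), left in lower case, was found in 6 of the 9 members with a RefSeq window, FOS, FOSB, FOSL2, JUN, JUND and IER2, and in 44.95% of all windows. Motifs other than the TATA box were searched on both strands, and GC boxes can overlap EGR sites. IER5 matched none of the 6 motifs in its window, and IER3 had no entry. A match describes letters and does not show that a factor was bound. Bases further than 250 before the start were not searched, so a motif missing from a window may still lie upstream of it.

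**Figure D1:**
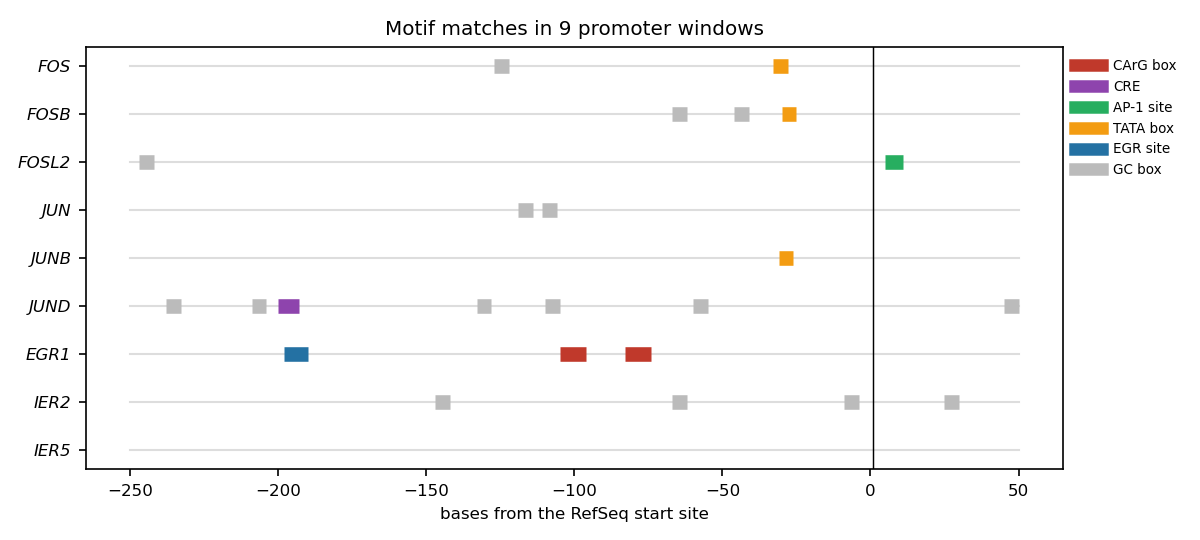
Motif matches in the promoter windows of 9 members, by distance in bases from the RefSeq start site (vertical line at base 1). Each coloured block is a match on either strand, with the TATA box on the sense strand only. Within these windows, both CArG boxes and the EGR site are in EGR1, the AP-1 site is in FOSL2, the CRE is in JUND, and TATA boxes are in FOS, FOSB and JUNB. Sequence outside the windows was not searched.

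The libraries held 30067011 to 44217023 expected counts each, and the biological coefficient of variation was 21.5%. Levels are given as CPM, counts relative to the library total as adjusted by edgeR's TMM factors. AXL stood at 85.1 (P15) and 139.5 (P3) CPM with control shRNA and at 55.4 and 63.0 CPM with AXL shRNA. It was lower in both cultures, which missed the threshold in edgeR's test (adjusted p = 0.120) and passed it with the replicate block described below (0.000858). It stood at 216 (P17) and 105 CPM (P4) in control cells and at 280 and 153 CPM with TP-0903. The mitochondrial share of counts was higher in both treated groups, at 6.79% and 7.79% with AXL shRNA against 3.94% and 5.17%, and at 5.16% and 5.82% with TP-0903 against 3.69% and 3.58%. The 9 markers of the A549 line, keratins and metabolic enzymes among them, summed to 37790 to 43890 CPM with AXL shRNA and to 17080 to 26690 CPM in the other groups. In edgeR's test 6 of the 9 were higher with AXL shRNA and 0 lower, beside 37.5% of all genes. AKR1C1 did not follow the sum, with 977 and 1002 CPM with AXL shRNA against 1371 and 1141 CPM with control shRNA (P15 and P3). Markers of other cell types were low, though 3 of the 4 sets were higher with AXL shRNA. The 6 leukocyte genes were not, with sums of 3.02 to 3.25 CPM there and 6.1 to 7.63 CPM with control shRNA. Over all groups they summed to 1.51 to 7.63 CPM, with PTPRC at no more than 0.0617 CPM. The 4 endothelial genes summed to 3.15 to 9.87 CPM with AXL shRNA and at most 2.74 CPM elsewhere. The 3 erythroid genes summed to 0.664 to 1.21 CPM with AXL shRNA and at most 0.174 CPM elsewhere. The 5 fibroblast genes summed to 26.6 to 42.6 CPM with AXL shRNA and 9.69 to 17.9 CPM elsewhere. The part of the mitochondrial share or of these markers in the results below was not tested.

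Compared per transcript length, in TPM (a transcript's share of all transcripts in the library), the members fell into an abundant and a scarce group. Mean TPM over the 8 libraries was 94.0 for IER3, 84.1 for JUND, 73.9 for FOSL2, 63.2 for JUNB, 47.9 for JUN, 41.2 for IER2 and 30.9 for IER5. Each of these 7 was above at least 75.5% of tested genes. FOS had a mean of 3.42 TPM, EGR1 of 1.19 and FOSB of 0.868, and FOSB was above 17.6% of tested genes. The scarce members were measured on few reads, from 29 to 336 for FOS, 17 to 314 for EGR1 and 17 to 303 for FOSB. At this depth the 95% Poisson interval of EGR1 in TP-0903 P4, which covers counting error only, ran from 0.290 to 0.797 CPM around 0.498.

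**Figure D2:**
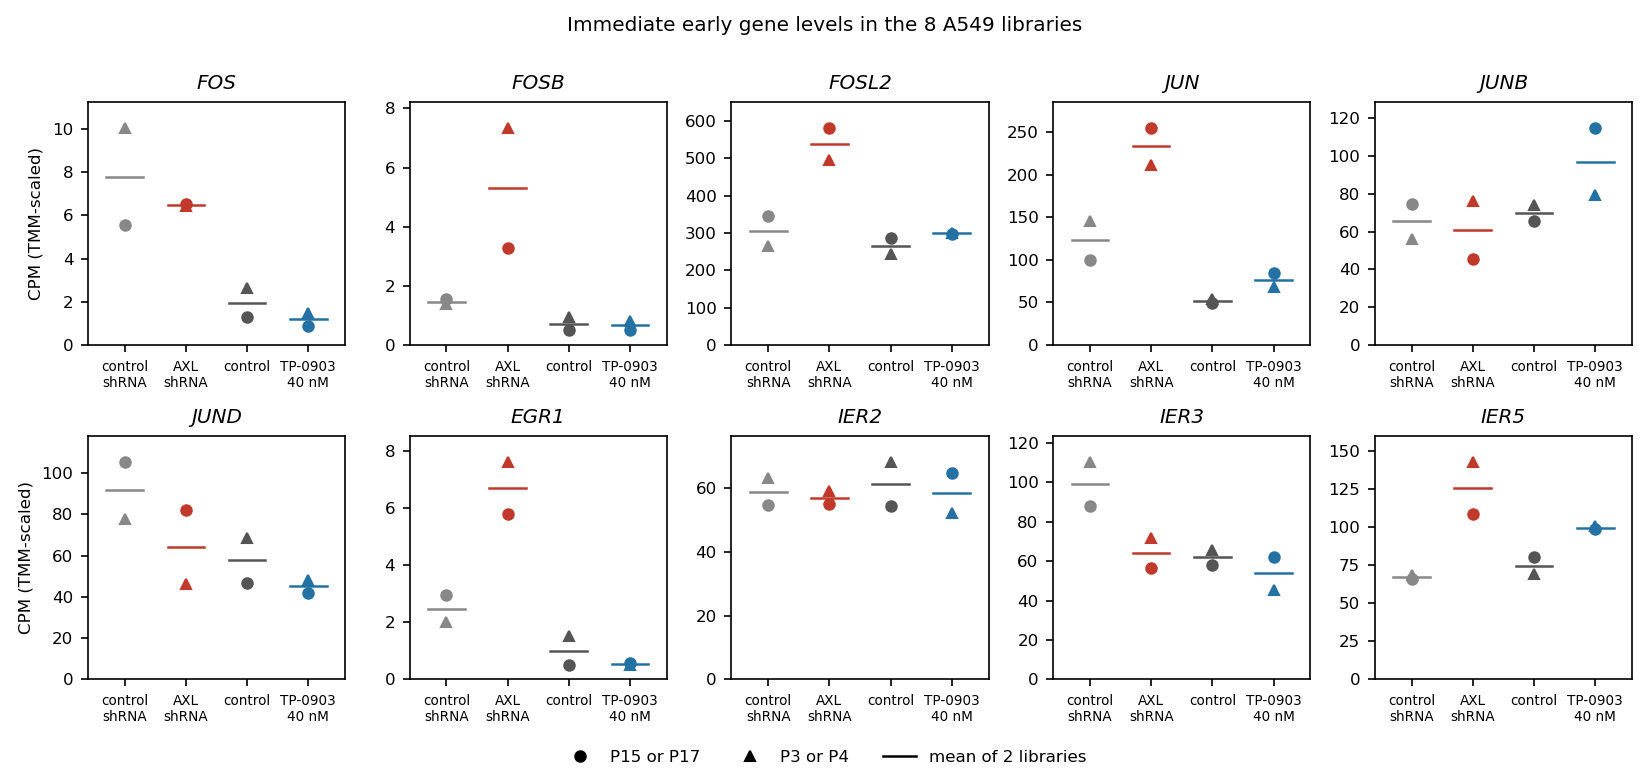
CPM of each of the 10 members in the 8 libraries, on a linear axis from 0 for each gene. Circles are P15 or P17, triangles are P3 or P4, and lines are means of 2 libraries. FOSB, FOSL2, JUN, EGR1 and IER5 have both AXL shRNA points above both control shRNA points, IER3 has both below, and JUN, JUNB, FOSL2 and IER5 have both TP-0903 points above both control points.

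With AXL shRNA, against the control hairpin, FOSB, FOSL2, JUN and IER5 rose and IER3 fell. JUNB, JUND, FOS, EGR1 and IER2 did not pass the test, although EGR1 was higher in both AXL shRNA libraries. The rises were 1.77-fold for FOSL2, 1.90-fold for JUN, 1.87-fold for IER5 and 3.61-fold for FOSB. In edgeR's quasi-likelihood test with Benjamini-Hochberg adjustment over all tested genes, 4 members were higher and 1 lower at an adjusted p under 0.05. Among all 17676 genes 37.5% passed (3275 higher and 3352 lower), so that 5 of 10 is not far above the background. The median log2 fold change was 0.39 for the members and -0.01 for all genes, and the median size of the change was 0.72 and 0.56. Of the genes that passed, 49.4% were higher, against 32.8% with library totals alone and 31.3% on log2(TPM + 1), where the median of all genes was -0.21 and -0.15, and all 5 members kept their direction and passed there. Ranges of the 2 groups did not overlap for 6 members, 5 above and 1 below, and 70.0% of all genes had such ranges. The numbers after P pair the libraries by the check given with the processing. With the P number as a replicate block, EGR1 joined the higher and JUND the lower members (5 higher and 2 lower), beside 51.7% of all genes.

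In the FOS family, FOSL2 (ENSG00000075426, chromosome 2, 28392448 to 28417312, plus strand), a FOS relative without a strong activation domain, had 345 and 265 CPM with control shRNA (P15 and P3) and 582.5 and 497 CPM with AXL shRNA. The AXL shRNA libraries stood at 169% (P15) and 188% (P3) of their same-number control, with no overlap. Its log2 fold change was 0.82 (SE 0.16, adjusted p = 0.00771), and it passed in all 19 alternative analyses. FOSB (ENSG00000125740, chromosome 19, 45467995 to 45475179, plus strand), known for its stable splice form delta-FosB in neurons, had 1.57 and 1.38 CPM with control shRNA and 3.29 and 7.35 CPM with AXL shRNA. Both AXL shRNA libraries were above both controls, and P3 accounted for the larger part of the rise, with 303 reads against 109 in P15. The change was 1.85 (SE 0.48, adjusted p = 0.0201). FOSB no longer passed without control shRNA P15 (adjusted p = 0.0774), control shRNA P3 (0.0951) or AXL shRNA P3 (1.16, 0.117). FOS (ENSG00000170345, chromosome 14, 75278774 to 75282230, plus strand), the cellular counterpart of a retroviral oncogene, had 5.54 and 10.1 CPM with control shRNA and 6.55 and 6.43 CPM with AXL shRNA. Its AXL shRNA values lay between both control values, and the change was -0.26 (SE 0.42, adjusted p = 0.649). FOSL2 and FOSB thus rose while FOS, measured in the same libraries, showed no change beyond its spread.

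In the JUN family, JUN (ENSG00000177606, chromosome 1, 58780788 to 58784327, minus strand), the AP-1 subunit phosphorylated by JNK, had 99.6 and 146 CPM with control shRNA and 255 and 212 CPM with AXL shRNA. Both AXL shRNA libraries were higher than both controls, at 256% of the control in P15 and 145% in P3. The change was 0.93 (SE 0.20, adjusted p = 0.0111), and it was lost in 1 of 19 alternatives, without AXL shRNA P15 (adjusted p = 0.0563). JUND (ENSG00000130522, chromosome 19, 18279760 to 18281622, minus strand), a member often expressed in unstimulated cells, had 105 and 77.8 CPM with control shRNA and 82.0 and 46.3 CPM with AXL shRNA. The groups overlapped, but each AXL shRNA library was below the control of its own number, at 77.8% and 59.6%. On the TPM scale JUND did not overlap, with 149.7 and 94.6 TPM against 90.4 and 56.6 TPM. The change was -0.51 (SE 0.30, adjusted p = 0.214). The replicate block gave -0.55 (SE 0.13, adjusted p = 0.00689). JUNB (ENSG00000171223, chromosome 19, 12791496 to 12793315, plus strand), which can oppose JUN at some promoters, had 74.7 and 56.4 CPM with control shRNA and 45.4 and 76.1 CPM with AXL shRNA. It was lower in P15 and higher in P3, and the change was -0.11 (SE 0.28, adjusted p = 0.783). JUNB overlaps HOOK2 on the opposite strand, and no strand is stated for the libraries, so reads of the pair cannot be told apart where they overlap. HOOK2 was given at most 480 counts and JUNB at least 1503.

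EGR1 (ENSG00000120738, chromosome 5, 138465490 to 138469315, plus strand), a zinc finger factor induced by ERK signalling, had 2.95 and 2.01 CPM with control shRNA and 5.80 and 7.62 CPM with AXL shRNA. The groups did not overlap, and the AXL shRNA libraries stood at 196% (P15) and 380% (P3) of the control of the same number. The log2 fold change was 1.44 (SE 0.48, adjusted p = 0.0504). The replicate block gave 1.44 (SE 0.37, adjusted p = 0.0109). EGR1 passed in 9 of its 18 alternatives, among them DESeq2 (adjusted p = 0.0179) and limma-voom (0.0217), over a range of 0.000638 to 0.202. Leaving out control P17 or control P4, neither of which is in this comparison but both of which shape the shared spread, also let it pass (0.0148 and 0.0154).

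Of the IER genes, IER5 (ENSG00000162783, chromosome 1, 181088712 to 181092899, plus strand), a nuclear regulator tied to the heat shock response, had 65.7 and 68.4 CPM with control shRNA and 108 and 143 CPM with AXL shRNA. The AXL shRNA libraries stood clear of the controls at 165% and 209% of them, and the change was 0.90 (SE 0.15, adjusted p = 0.00397), past the threshold in all 19 alternatives. IER3 (ENSG00000137331, chromosome 6, 30743199 to 30744554, minus strand), a stress-inducible gene that modulates cell death and ERK signalling, had 87.8 and 110.4 CPM with control shRNA and 56.7 and 71.9 CPM with AXL shRNA. Both AXL shRNA libraries were lower, at 64.6% (P15) and 65.1% (P3) of the control of the same number. The change was -0.62 (SE 0.20, adjusted p = 0.0419).  IER3 passed in 12 of 19 alternatives. It did not pass without control shRNA P3 (0.189), AXL shRNA P15 (0.184), AXL shRNA P3 (0.0532), control P17 (0.0607) or control P4 (0.0605). It also did not pass with RLE size factors (0.0509) or when the 4 shRNA libraries were fitted alone (0.0565). IER2 (ENSG00000160888, chromosome 19, 13150415 to 13154908, plus strand), a nuclear protein induced by growth factors, had 54.8 and 63.1 CPM with control shRNA and 54.9 and 59.0 CPM with AXL shRNA. Its groups overlapped and its change was -0.05 (SE 0.16, adjusted p = 0.827). The antisense neighbours of IER3 and IER2 were given at most 18 and 7 counts.

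**Figure D3:**
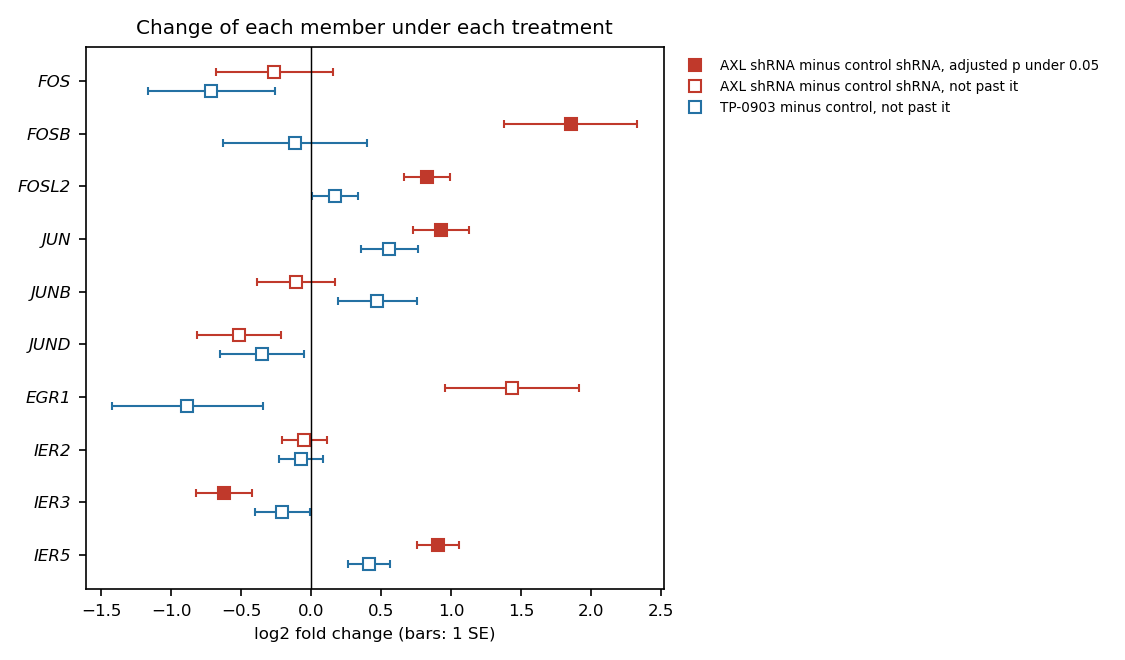
Log2 fold change of each member with AXL shRNA (red, against control shRNA) and TP-0903 (blue, against control), with bars of 1 SE. Filled squares passed an adjusted p of 0.05: FOSB, FOSL2, JUN and IER5 to the right and IER3 to the left for AXL shRNA, and none for TP-0903.

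TP-0903 at 40 nM, against control cells, changed no member past the threshold. JUN and IER5 were the closest: both were higher in both treated libraries, by 1.47-fold and 1.33-fold. FOS, FOSB and EGR1 were at 1.49 CPM or less with the drug, in ranges that overlapped the controls. In edgeR's quasi-likelihood test 0 of 10 members passed, beside 11.3% of all genes (866 higher and 1123 lower). An unadjusted p under 0.05 was reached by 2 members, and its share over all genes was not counted. DESeq2 and limma-voom also found 0 (of 2901 and 1947 genes), and the fit with no filter on low counts found 2, JUN and JUNB (of 3515 genes). With the replicate block 1 member passed, IER5, beside 26.3% of all genes. The ranges did not overlap for 4 members, all 4 higher with TP-0903, and 59.8% of all genes had such ranges. The median log2 fold change was -0.09 for the members and -0.02 for all genes. Of the genes that passed, 43.5% were higher, against 33.4% with library totals alone.

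JUN had 49.9 and 53.8 CPM in control cells (P17 and P4) and 84.3 and 68.3 CPM with TP-0903. Both treated libraries were above both controls, at 169% and 127% of the same-number control. The log2 fold change was 0.56 (SE 0.20, adjusted p = 0.124). The block gave 0.55 (adjusted p = 0.0604). IER5 had 80.5 and 68.9 CPM in control cells and 98.7 and 100.3 CPM with TP-0903. Again the groups did not overlap, and the change was 0.41 (SE 0.15, adjusted p = 0.121). The block gave 0.42 (adjusted p = 0.0323). JUNB had 65.8 and 74.2 CPM in control cells and 115 and 79.2 CPM with TP-0903. The higher value came from P17, at 175% of its control against 107% in P4, and the change was 0.47 (SE 0.28, adjusted p = 0.317). FOSL2 had 287 and 245 CPM in control cells and 298.5 and 299.7 CPM with TP-0903, above the controls by a small margin (0.17, SE 0.16, adjusted p = 0.547).

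The other 6 members overlapped their controls. FOS had 1.30 and 2.63 CPM in control cells and 0.895 and 1.49 CPM with TP-0903, lower than the control of the same number in both P17 (68.9%) and P4 (56.9%), with a change of -0.72 (SE 0.45, adjusted p = 0.350). EGR1 had 0.487 and 1.51 CPM in control cells and 0.586 and 0.498 CPM with TP-0903. Its change of -0.89 (SE 0.54, adjusted p = 0.329) came from control P4, the only one of these 4 libraries above 1 CPM, and without that library it was 0.17 (adjusted p = 0.868). FOSB had 0.514 and 0.942 CPM in control cells and 0.525 and 0.820 CPM with TP-0903 (-0.12, SE 0.51, adjusted p = 0.912). On the TPM scale, which takes each library's own estimate of transcript length, FOSB had 0.42 and 0.61 TPM in control cells and 0.23 and 0.32 TPM with TP-0903, with no overlap. With those effective lengths as offsets its change was -0.86 and did not pass (adjusted p = 0.307). JUND had 46.9 and 68.4 CPM in control cells and 41.9 and 48.3 CPM with TP-0903 (-0.35, SE 0.30, adjusted p = 0.490). JUND did not overlap on the TPM scale either, with 75.6 and 91.3 TPM in control cells and 53.8 and 61.0 TPM with TP-0903. IER3 had 58.3 and 65.7 CPM in control cells and 62.0 and 45.5 CPM with TP-0903 (-0.21, SE 0.20, adjusted p = 0.546). IER2 had 54.6 and 68.3 CPM in control cells and 64.8 and 52.1 CPM with TP-0903 (-0.07, SE 0.16, adjusted p = 0.811). IER2 and IER3 each moved in opposite directions in P17 and P4.

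Whether hairpin and drug differed in their effect was tested as the TP-0903 change minus the AXL shRNA change, a contrast in which no library is shared. In edgeR's quasi-likelihood test 0 members passed, beside 20.6% of all genes. The share of all genes with an unadjusted p under 0.05 was not counted and is at least 20.6%. Of the members 3 had such a p. These were EGR1 (-2.32, SE 0.72, adjusted p = 0.0593), FOSB (-1.97, SE 0.70, adjusted p = 0.0864) and FOSL2 (-0.65, SE 0.23, adjusted p = 0.0856), all 3 with the smaller or more negative change under the drug. With the replicate block the 3 passed, at -2.22 (adjusted p = 0.0215), -1.86 (0.0293) and -0.66 (0.0124), beside 36.9% of all genes. DESeq2 found 2, FOSL2 and EGR1 (of 4387 genes), the fit with no filter found 4 (of 5026 genes), and limma-voom found 0 (of 3637 genes). Of the genes that passed, 47.6% had the higher change under the drug, against 61.0% with library totals alone and 63.6% on log2(TPM + 1), where the median of all genes was 0.15 and 0.14. JUN, which was higher under both treatments, differed by -0.37 (SE 0.29, adjusted p = 0.397) and IER5 by -0.49 (SE 0.21, adjusted p = 0.143). For IER3 the difference was 0.42 (SE 0.28, adjusted p = 0.326) and for JUNB 0.58 (SE 0.40, adjusted p = 0.337). The SEs are large beside these differences, and a p that misses the threshold does not show that hairpin and drug act alike on these genes.

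The control groups themselves differed in some members, with FOS and JUN higher in control shRNA than in control cells. This comparison is a description, since the groups also differ in P number and the effects of hairpin and number cannot be told apart. FOS had 5.54 and 10.1 CPM with control shRNA against 1.30 and 2.63 CPM in control cells, with a log2 fold change of 1.99 (SE 0.44, adjusted p = 0.0371). JUN had 99.6 and 146 CPM against 49.9 and 53.8 CPM, with a change of 1.24 (SE 0.20, adjusted p = 0.0139). Neither gene's groups overlapped, and these were the 2 members past the threshold, both higher, beside 9.15% of all genes (541 higher and 1077 lower). FOS passed in 9 of 17 alternatives: it did not pass when those 4 libraries were fitted alone (0.0769), and of the 8 fits without a library it passed only without control P4. The others ran from 0.0532 (without TP-0903 P17) to 0.222 (without control P17), with 0.138 without control shRNA P3, 0.0580 without control shRNA P15, 0.0562 and 0.0579 without AXL shRNA P15 and P3, and 0.0551 without TP-0903 P4. JUN did not pass without control P17 (0.134), control P4 (0.0546) or control shRNA P3 (0.0501). EGR1 was also higher in both control shRNA libraries, at 2.95 and 2.01 CPM against 0.487 and 1.51 CPM, with a change of 1.30 (SE 0.50, adjusted p = 0.145). IER3 differed by 0.68 (SE 0.20, adjusted p = 0.0762).

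These control levels set the order of the 4 groups. With 2 libraries a group, groups that do not overlap are common. Among all genes this held for 70.0% between control shRNA and AXL shRNA and for 59.8% between control and TP-0903. No such share was counted for other neighbours or for a whole order, so the orders are a description. For JUN the order was control (mean 51.9 CPM), TP-0903 (76.3), control shRNA (123) and AXL shRNA (233), and no neighbours in it overlapped. IER5 also had no overlap between neighbours, in the order control shRNA (67.1 CPM), control (74.7), TP-0903 (99.5) and AXL shRNA (126), although its 2 control groups came as close as 68.4 and 68.9 CPM. FOSB and EGR1 shared 1 order, TP-0903, control, control shRNA and AXL shRNA, in which only TP-0903 and control overlapped. Their highest group mean was 7.91 times the lowest for FOSB and 12.4 times for EGR1, the widest spans among the members. FOS was high in both shRNA groups, which overlapped, and low in the other groups, which also overlapped. For FOSL2 the AXL shRNA group stood apart from the rest and TP-0903 overlapped control shRNA, for JUNB TP-0903 stood apart, and for IER3 control shRNA stood apart. JUND overlapped between all neighbours. IER2 did so too, and with a highest mean only 1.08 times the lowest it was the steadiest member.

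Per transcript length, FOSL2 made up most of the FOS family signal of the 3 members. It held 85.9% to 98.3% of the summed TPM of FOS, FOSB and FOSL2 in every library. In the JUN family the shares differed between the groups in the values below, which were not tested. The shares are parts of the same sum, so a higher share of JUN lowers the others. In edgeR's test JUND itself did not pass with AXL shRNA (adjusted p = 0.214) or TP-0903 (0.490). How often such shares do not overlap in other gene families was not counted. JUN held 16.99% and 29.6% of the summed TPM of JUN, JUNB and JUND with the control hairpin, against 42.5% and 40.3% with AXL shRNA, with no overlap. JUND went the other way, from 56.4% and 46.4% to 41.7% and 29.4%, again with no overlap. In control cells JUN held 13.7% and 12.7%, and with TP-0903 it held 18.6% and 17.9%, which do not overlap either. JUNB held 37.6% and 36.6% in control cells and 53.0% and 43.5% with TP-0903, where it was the largest share. JUND held 48.7% and 50.6% in control cells and 28.5% and 38.6% with TP-0903, with no overlap. Summed TPM of the JUN members was 3.06 and 3.05 times that of the FOS members with control shRNA and 1.90 and 1.85 times with AXL shRNA. It was 2.40 and 3.18 times in control cells and 2.87 and 2.39 times with TP-0903, where the ranges overlapped. FOSL1 is not counted in these ratios. Its TPM was 16.6 and 35.7 with control shRNA against 86.8 and 119.6 with AXL shRNA. In control cells it was 15.9 and 16.3, against 54.45 and 36.35 with TP-0903. The ratios and their overlap hold for the 3 FOS members only, and counting FOSL1 in would lower each ratio. These shares are of messenger RNA and say nothing of which dimers formed.

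**Figure D4:**
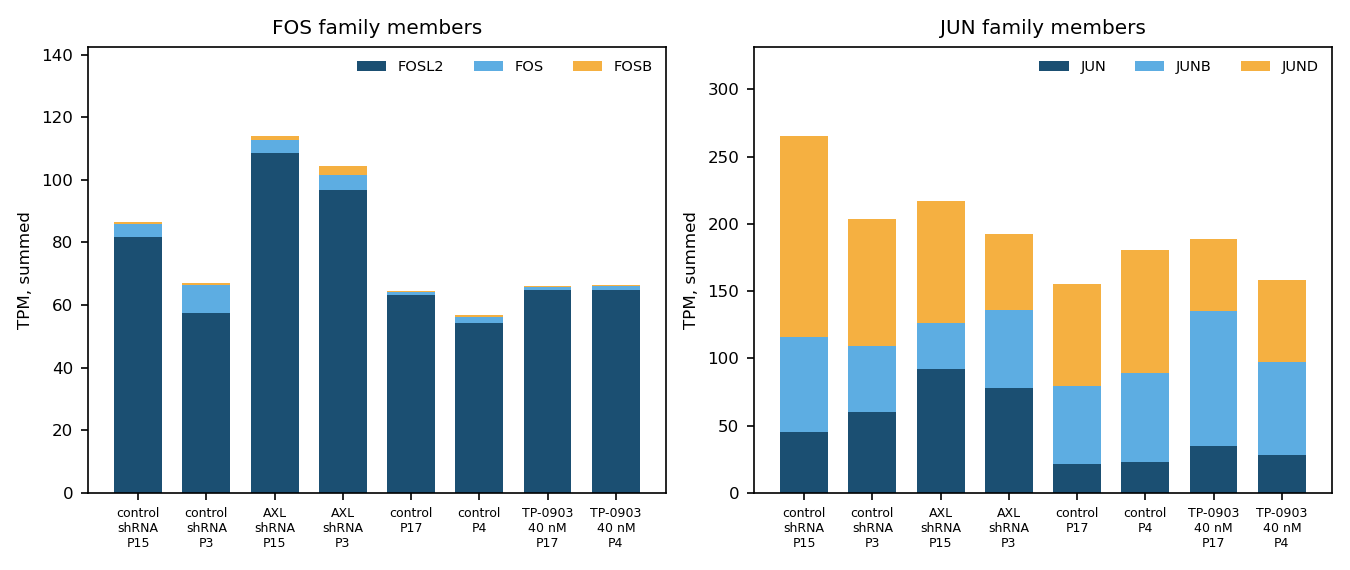
Summed TPM of the FOS family members (left) and JUN family members (right) in each library, as stacked bars from 0. FOSL2 fills 85.9% to 98.3% of each left bar, and the JUN segment is taller with AXL shRNA than with control shRNA.

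FOSL1, the FOS relative that is no member here, was looked at beside them after its values were seen. It had 14.5 and 33.0 CPM with control shRNA and 92.0 and 124 CPM with AXL shRNA (log2 fold change 2.19, SE 0.38, adjusted p = 0.00471). It had 14.6 and 14.9 CPM in control cells and 50.2 and 33.7 CPM with TP-0903 (1.51, SE 0.38, adjusted p = 0.0447). With FOSL1 counted in, FOSL2 held 54.1% and 43.2% of the FOS family TPM with AXL shRNA, against 79.0% and 56.0% with control shRNA. With TP-0903 it held 53.8% and 63.0%, against 78.5% and 74.1% in control cells.

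Other genes of the system were taken from 7 lists and from the AXL receptor family, in which 0 of 5 tested genes passed in either comparison by edgeR (with the replicate block, 1 was higher and 2 lower with AXL shRNA, and 2 higher and 1 lower with TP-0903). Counts are over the tested genes of a list and are to be read against 37.5% of all genes with AXL shRNA and 11.3% with TP-0903, and against 51.7% and 26.3% where the replicate block is named. With AXL shRNA 10 of 30 other immediate early genes were higher and 3 lower, with a median log2 fold change of 0.46, and with TP-0903 4 were higher and 0 lower (median 0.20). The replicate block gave 15 higher and 7 lower with AXL shRNA and, with TP-0903, 7 higher and 4 lower. BTG2, an antiproliferative cofactor, went from 12.5 ± 0.918 to 62.9 ± 1.88 CPM with AXL shRNA (mean ± SD, n = 2 for each group here) and from 17.9 ± 2.70 to 68.6 ± 7.61 CPM with TP-0903. Its log2 fold changes were 2.33 (SE 0.15, adjusted p = 0.00036) and 1.94 (SE 0.15, adjusted p = 0.000646). TRIB1, a pseudokinase of the MAP kinase system, rose by 1.70 (SE 0.13) and PLK2, a polo-like kinase, by 1.17 (SE 0.14) with AXL shRNA. PLK3, a stress-responsive kinase, rose by 1.32 (SE 0.19) and CTGF, a matricellular growth regulator, by 1.46 (SE 0.27) with TP-0903. Named after their values were seen, HBEGF was the fourth higher gene with TP-0903 (1.57), and GADD45B (-0.87), KLF10 (-0.69) and IER5L (-1.25) were the 3 lower genes with AXL shRNA. IER5L, a relative of IER5, thus fell where IER5 rose.

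Among 19 tested AP-1 target genes 11 were higher and 1 lower with AXL shRNA, with a median log2 fold change of 1.68, and 3 were higher with TP-0903 (median 0.39). With the replicate block these were 16 and 1, and 6 higher and 1 lower. CXCL8, a neutrophil chemokine, went from 27.4 ± 10.6 to 246 ± 48.6 CPM with AXL shRNA (3.17, SE 0.33, adjusted p = 0.000809). CCND1, the cyclin that drives entry into the cell cycle, went from 506 ± 71.7 to 1427 ± 120 CPM (1.49, SE 0.16, adjusted p = 0.000948) and, with TP-0903, from 412 ± 63.3 to 849 ± 10.7 CPM (1.05, SE 0.16, adjusted p = 0.00848). GSTP1, a glutathione transferase, rose by 1.09 (SE 0.13) with AXL shRNA. With TP-0903 PLAUR, the urokinase receptor, rose by 0.83 (SE 0.19, adjusted p = 0.0341). The lower gene with AXL shRNA was VEGFA (-1.64), named after its values were seen. The list named AP-1 dimer partners is broad: it also holds FOSL1, itself a FOS family subunit, and the related factors CREB1 and CREM. Of its 12 tested genes 1 was higher and 4 lower with AXL shRNA. With TP-0903 1 was higher (FOSL1) and 2 lower (CREM and CREB1). Under the replicate block 2 were higher and 4 lower in each. CREM, a cAMP-responsive factor, fell under both treatments, by 1.37 (SE 0.12) with AXL shRNA and by 0.77 (SE 0.12) with TP-0903. JDP2, a repressor that pairs with JUN, fell by 1.88 (SE 0.35) and ATF2, a JUN partner, by 0.86 (SE 0.19) with AXL shRNA, and CREB1 fell by 0.51 (SE 0.13) with TP-0903. The CREB1 change was smaller and did not pass on log2(TPM + 1) (-0.22, adjusted p = 0.523), on log2(TPM + 0.1) (-0.23, 0.514) or with effective lengths as offsets (-0.19, 0.624). MAFK was the fourth lower gene of this list with AXL shRNA (-0.94) and FOSL1 the higher gene in both comparisons, both named after their values were seen. Mean MAFK was 348 CPM with control shRNA, 182 CPM with AXL shRNA and 155.5 CPM in control cells. It was thus lower than the control hairpin but not lower than control cells.

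Of 21 genes for serum response factor, its cofactors and upstream kinases, 7 were higher and 5 lower with AXL shRNA (median 0.10), and 2 were higher with TP-0903 (median -0.01). Under the replicate block 9 were higher and 6 lower with AXL shRNA, and 4 higher and 3 lower with TP-0903. SRF itself, the factor that binds CArG boxes, went from 40.9 ± 0.642 to 88.3 ± 12.2 CPM with TP-0903 (1.11, SE 0.13, adjusted p = 0.00283). EGR1, with 17 to 61 reads per library in that comparison, did not pass. Binding at the marked matches and a link between SRF and EGR1 were not tested. MAPK11, a p38 kinase, rose by 0.85 (SE 0.18) with TP-0903. With AXL shRNA RPS6KA1, a kinase downstream of ERK, rose by 1.09 (SE 0.12) and MAP2K1, a kinase that activates ERK, by 0.87 (SE 0.11). The 5 lower genes, named after their values were seen, were RPS6KA2 (-3.80), RPS6KA5 (-1.89), MKL2 (-0.73), RPS6KA3 (-0.56) and MAPK9 (-0.52). RPS6KA2 was scarce, with means of 1.57 CPM with control shRNA, 0.112 CPM with AXL shRNA and 0.1825 CPM in control cells. Of 15 MAPK phosphatases and Sprouty-type feedback genes, 1 was higher and 2 lower with AXL shRNA (median 0.16). SPRED2 fell by 0.83 (SE 0.11) and SPRED1 by 0.62 (SE 0.12), both of them inhibitors of ERK signalling, and SPRED1 did not pass on log2(TPM + 1) (adjusted p = 0.155), on log2(TPM + 0.1) (0.147) or with effective lengths as offsets (0.375). The higher gene was the phosphatase DUSP2 (4.74), named after its values were seen. With TP-0903 0 of the 15 passed in edgeR's test. The replicate block gave 3 higher and 3 lower with AXL shRNA and 1 higher with TP-0903. Between the control groups 6 of these 15 were higher with control shRNA and 0 lower, and 7 of 30 other immediate early genes were higher and 0 lower, beside 9.15% of all genes (541 higher and 1077 lower).

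Of 10 EGR1 corepressors and target genes 3 were higher and 1 lower with AXL shRNA (median 0.61), and with TP-0903 0 passed in edgeR's test. The replicate block gave 5 higher and 1 lower with AXL shRNA and 3 higher with TP-0903, where 26.3% of all genes passed. ICAM1, an adhesion molecule, went from 3.88 ± 0.0112 to 37.9 ± 16.7 CPM (3.29, SE 0.51, adjusted p = 0.00297). F3, the coagulation tissue factor, rose by 2.28 (SE 0.58, adjusted p = 0.0194) and SPHK1, a sphingosine kinase, by 1.86 (SE 0.43, adjusted p = 0.0133). The lower gene was TGFB1 (-0.87), named after its values were seen. Of 9 proteins that bind AU-rich elements, 3 were higher and 2 lower with AXL shRNA (median -0.09), and 0 were higher and 2 lower with TP-0903 (median -0.25). With the replicate block these were 3 and 2, and 0 higher and 3 lower. ZFP36, which speeds the decay of AU-rich messages, rose by 1.27 (SE 0.22) with AXL shRNA, CELF1, an RNA-binding regulator of splicing and decay, rose by 0.75 (SE 0.10), and KHSRP, a decay factor, rose by 0.72 (SE 0.11). KHSRP fell by 0.51 (SE 0.11) with TP-0903, as did HNRNPD, another AU-rich binding protein, by 0.72 (SE 0.12). The lower genes with AXL shRNA were TIA1 (-0.49) and HNRNPD (-0.48), named after their values were seen.

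Several of these passes rested on 1 library or on the fit. With TP-0903, MAPK11 (adjusted p = 0.0748 and 0.0715) and PLAUR (0.0594 and 0.0562) did not pass on log2 TPM with pseudocounts of 1 and 0.1. KHSRP did not pass there with effective lengths (0.0744). Fitted on the 4 libraries alone, CREB1, MAPK11, PLAUR and KHSRP ran from 0.0506 to 0.0656, and CREB1 came to 0.0532 with RLE size factors. With AXL shRNA, ATF2 did not pass without AXL shRNA P15 (adjusted p = 0.0615) or control shRNA P3 (0.0552), SPHK1 without control shRNA P15 (0.0791) or AXL shRNA P3 (0.0662), and F3 without control shRNA P15 (0.0536), control shRNA P3 (0.105) or AXL shRNA P3 (0.0749). With TP-0903 only BTG2 and SRF of the list genes named here by rule passed in every fit that left out 1 library. Without control P17 the others ran from 0.0542 (PLK3) to 0.188 (KHSRP). Without TP-0903 P17, CREM, CREB1, CTGF, MAPK11, CCND1, PLAUR, HNRNPD and KHSRP did not pass, from 0.0566 (CCND1) to 0.283 (CREB1). Without control P4, CREB1, CTGF, MAPK11, PLAUR and KHSRP did not pass, from 0.0554 (KHSRP) to 0.198 (CREB1). Without TP-0903 P4, CREM, CREB1, HNRNPD and KHSRP did not pass, from 0.0546 (CREM) to 0.143 (KHSRP). CREB1 and KHSRP also missed the threshold without AXL shRNA P15 (0.0710 and 0.0556) or P3 (0.0722 and 0.0547).

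**Figure D5:**
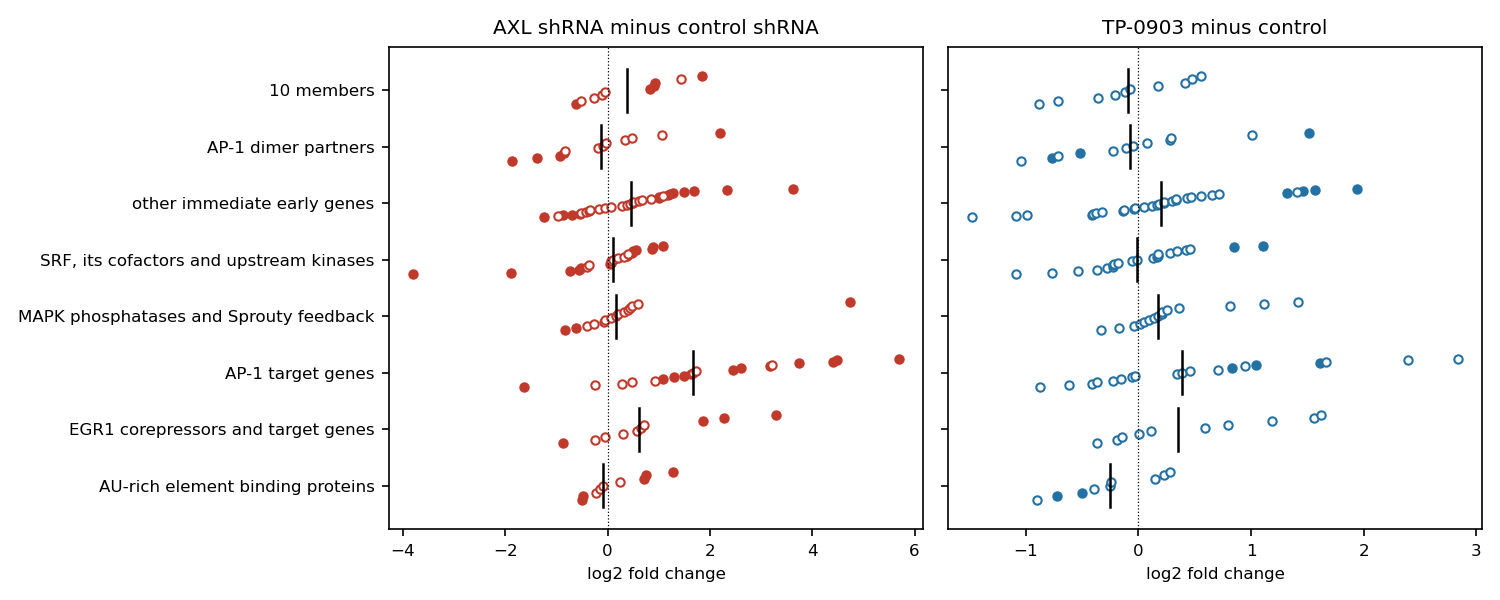
Log2 fold change of every tested gene of the 10 members and 7 lists, with AXL shRNA (left) and TP-0903 (right) on separate scales. Filled points passed an adjusted p of 0.05, and vertical bars are list medians. The medians of the AP-1 target genes are 1.68 and 0.39, and those of the 10 members 0.39 and -0.09.

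The members' patterns over the 8 libraries were compared by the root mean square difference of log2 CPM (pseudocount 2) around each gene's own mean, as a description over libraries that share groups and P numbers. The closest pair of members was FOSB and EGR1, with a difference of 0.24, followed by FOSL2 and IER5 with 0.30, and the farthest was JUN and JUNB with 1.03. For scarce genes the pseudocount narrows such differences. Among 11309 genes averaging 5 CPM or more, those most like EGR1 were GJA1 (0.17), YRDC (0.22) and FAM69B (0.23). Those most like FOS were PIM1 (0.20), RHCG (0.21) and ARHGEF2 (0.22). Those most like JUN were SGK1 (0.24), PAPPA-AS1 (0.24) and RHOB (0.26), of which SGK1 and RHOB were also in the list of other immediate early genes. In the same measure EGR1, FOS and JUN varied around their own means by 0.70, 0.72 and 0.81. The pseudocount narrows EGR1 and FOS far more than JUN, so these values do not rank the members by fold change. The highest group mean was 12.4 times the lowest for EGR1, 6.53 times for FOS and 4.50 times for JUN. Genes listed as most like EGR1 or FOS match that narrowed pattern.

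Many members had short genes or a single exon, features that the choice by symbol did not use. Members of the same family are related genes and so are not independent cases. In 1 GENCODE 29 transcript per gene, JUN, JUNB, JUND, IER2 and IER5 had a single exon, which is 5 of 10 members against 2.58% of 14148 tested protein-coding genes. That transcript was picked by its annotation tags, and by length where these tied. For IER2 it has 2934 bases in a gene spanning 4494, so its exon and ATTTA counts hold for that transcript only. Of the members 8 spanned under 5000 bases, against 8.52% of those genes, and the longest was FOSL2 with 24865 bases. The AU-rich pentamer ATTTA occurred at least 2 times in the 3′ UTR of 7 members, from 2 in JUNB to 10 in IER5. It did so in 51.7% of genes, so that 7 of 10 is not far above the background. The longer form TTATTTATT occurred in FOS (1), FOSL2 (1) and IER5 (3), against 8.25% of genes. IER2 had no ATTTA, and EGR1 and JUND had 1 each.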

How the data were processed

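The labels describe 8 A549 RNA libraries made with Nextera XT, and no strand is stated. Per the submitters' processing notes, reads were aligned to GRCh38 with STAR (2.5.3a). Gene quantities came from RSEM, for which neither version nor annotation is stated there. The expected counts, deposited unnormalized by the authors, are RSEM's estimate of the reads from each gene. The deposited TPM values correct these for effective length and depth in 1 library at a time, per the file headers. The deposited effective lengths entered 1 alternative.

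Expected counts were rounded to whole numbers (IER3 had fractional values in 8 libraries, IER2 in 6 and JUNB in 1), filtered with filterByExpr and scaled by TMM. All 8 libraries entered 1 edgeR (4.0.16, in R 4.3.3) quasi-likelihood fit with a term per group (prior degrees of freedom 3.33), with two-sided tests and Benjamini-Hochberg adjustment over 17676 genes at 0.05. An SE is the log2 fold change divided by the square root of F. Alternatives were 2 scalings, 2 filters, DESeq2 (1.42.0), limma-voom and limma (3.58.1) on log2 TPM with 2 pseudocounts, effective lengths as offsets, the replicate block, the 4 libraries of a comparison alone, and each of 8 libraries left out. The script was checked on simulated data.

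Deviations from group means correlated across genes at 0.559 (shRNA groups) and 0.626 (control and TP-0903) between libraries of the same P number, and at 0.177 to 0.380 between groups that share none. P numbers were therefore taken as pairs from the data, not from a stated design. From each list, up to 3 genes with the smallest p in the direction with more passes were named. Some items chosen by this rule are not reported here. The 10 members and all lists were chosen with earlier results of these data known.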

Additional observations from a re-analysis of the deposited data

Results flagged for a closer look

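FOSB, FOSL2 and EGR1 differed between the hairpin and the drug when the difference of their effects was tested with the replicate block. In that test 36.9% of all genes passed, so the share of members that passed was not above the background. The TP-0903 change minus the AXL shRNA change was -1.86 for FOSB, -0.657 for FOSL2 and -2.22 for EGR1 on the log2 scale. Without the block none of these differences passed in edgeR's quasi-likelihood test (adjusted p = 0.0864, 0.0856 and 0.0593), where 20.6% of all genes passed. An unadjusted p under 0.05 was reached there by 3 members, and its share over all genes was not counted. FOSB and EGR1 had 17 to 61 reads per library in the control and TP-0903 groups, and FOSL2 had at least 9673 there.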

How the results depend on the processing

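The 5 members that passed with AXL shRNA kept their direction in every alternative run. In fits that left out 1 library, the number of members past the threshold ran from 3 to 5 with AXL shRNA, was 0 throughout with TP-0903, and ran from 0 to 1 for the difference of effects and from 0 to 2 for control shRNA against control. The number of all genes past it ran from 4408 to 6105, 489 to 1727, 1855 to 2670 and 343 to 1277. The lone library of a group is there assumed to vary like the others.

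With the replicate block, 1 member passed with TP-0903 (of 4647 genes) and 3 for the difference (of 6530). The block moved no other member across the threshold than those given beside the results. With no filter 2 members passed with TP-0903 (of 3515 genes), 4 for the difference (of 5026) and 5 between the controls (of 3352 genes). For the difference DESeq2 gave 2 members (of 4387 genes) and effective lengths gave 1 (of 3086 genes), and between the controls DESeq2 gave 2654 genes. Between the controls 1 member passed after the filter at 5 CPM (of 1783 genes). That filter removed FOS, with its mean of 4.36 CPM, so FOS was not tested there. When the 4 libraries were fitted alone, 1 member and 743 genes passed.

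Changes that turned sign had not passed. In fits without 1 library they ran, with AXL shRNA, from -0.64 to 0.22 for FOS, -0.53 to 0.21 for JUNB and -0.16 to 0.050 for IER2. With TP-0903 they ran from -0.47 to 0.41 for FOSB, -1.46 to 0.17 for EGR1, -0.24 to 0.12 for IER2, -0.44 to 0.016 for IER3 and -0.064 to 1.06 for AXL. For the difference they ran from -0.94 to 0.17 for FOS, -0.20 to 0.63 for JUND and -0.18 to 0.17 for IER2, and between the controls from -0.30 to 0.094 for JUNB, -0.21 to 0.12 for IER2 and -0.94 to 0.10 for AXL. The FOS difference was 0.20 and 0.13 on log2 TPM with pseudocounts of 1 and 0.1. The IER2 difference was 0.17 and 0.18 there, 0.11 with library totals, 0.0020 with no filter and 0.0034 with effective lengths. The cause was not tested.

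FOS, FOSB and EGR1 had 17 to 106 reads per library in the control and TP-0903 groups, against at least 1359 for each other member there.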
